A study of Mus musculus with 3 samples.

Results

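Fibroblast growth factor (FGF) and hepatocyte growth factor (HGF) signalling was followed in healing mouse skin through 9 genes, chosen by name from the 32285 genes of the count tables and matched by Ensembl identifier. They were the FGF ligands *Fgf2*, *Fgf7*, *Fgf10*, and *Fgf18*, the FGF receptors *Fgfr1*, *Fgfr2*, and *Fgfr3*, the ligand *Hgf*, and its receptor *Met*. All 9 were found in each of the 3 tables.

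The wounds were full-thickness punch wounds, 4 mm across, in the skin of male C57BL/6J mice of 7 to 12 weeks, an inbred strain, with no other genotype or treatment given in the labels, and the submitters' design text calls the injury incisional. Tissue was taken on Days 3, 7, and 14 after injury, and unwounded skin was not analysed here. Each day was 1 library, made from cells pooled over 4 pieces of wound tissue and captured without sorting. Differences between days therefore carry no p-value, and day and library cannot be told apart. Transcripts were counted as UMIs, molecular tags that each stand for a single captured transcript. All intervals are 95% intervals for counting error alone, because tags and cells of a library are not replicates of a day.

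Most FGFs are secreted ligands that bind receptor tyrosine kinases together with heparan sulfate on the cell surface. Fgf7 (keratinocyte growth factor) and Fgf10 are known as ligands that mesenchymal cells release and that act on the epithelial splice form of Fgfr2, whereas Fgf2 and Fgf18 act mainly on the mesenchymal splice forms and on Fgfr1 or Fgfr3. HGF is secreted as an inactive precursor, is cut into its active form by proteases, and drives growth and migration of epithelial and endothelial cells through Met. Reads of the 3' end of a transcript do not tell the splice forms of a receptor apart, so the levels below are sums over them.

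Of 5158, 22924, and 16611 barcodes on Days 3, 7, and 14 (from 38133650 to 120940799 UMIs in a library), 4360, 19590, and 13510 were analysed as cells. Cells were grouped into 13 classes from standard markers, with none of the 9 genes used for grouping. Fibroblast-like cells (8 of 8 markers on each day) made up 11.6%, 32.0%, and 52.4% of the cells, and macrophage-like cells (9 of 9 markers) made up 62.5%, 48.4%, and 23.8%. Most fibroblast-like cells lay in a cluster led by *Saa3* and *Cxcl5* on Day 3 (72.4%), and the best filled cluster was led by *Tnc* and *H19* on Day 7 (2508 of 6267 cells) and by *Mgp* and *Cilp* on Day 14 (51.1%). Fibroblast-like cells were deeper on Day 3, with a median of 38507 UMIs against 10077 and 9890 on Days 7 and 14. A mesenchymal class marked by *Bmp4*, *Crabp1*, *Wif1*, and *Lef1* had 4, 65, and 724 cells. Its marker list follows the study's cluster table, which was made on these libraries, and the class is called Bmp4 mesenchymal-like here. Between 0.368% and 0.834% of barcodes in the smaller library of a pair recurred in the other library.

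Levels are in CPM, the UMIs of a gene divided by all UMIs of a class in a library and scaled to 1000000. They are compared within a gene and not between genes. The total includes *Gm42418*, which made up 3.60%, 11.7%, and 6.42% of the UMIs of the libraries on Days 3, 7, and 14 (all barcodes). Its part in small ratios between days was not tested on its own. Droplets also take up free RNA, and fibroblast markers made up 0.625%, 3.30%, and 3.77% of their own level in macrophage-like cells (8 of 8 markers found on each day). A carried-over level was therefore computed for the other classes and is given beside most values in them. It is the *Col1a1* level of the class as a share of that in fibroblast-like cells of the same library, times the gene's level in fibroblast-like cells. Free RNA from other classes is not part of it.

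*Fgf7*, *Fgf10*, and *Fgf18* lie on the mm10 build (GRCm38) at chr2:126034658-126091185 (plus strand), chr13:118669791-118792115 (plus strand), and chr11:33117430-33147400 (minus strand). Their promoters are shown because *Fgf7* and *Fgf10* both had their highest levels of Day 14 in Bmp4 mesenchymal-like cells, where *Fgf18* had 1 UMI. Each sequence is the 250 bases before the gene's RefSeq start (GRCm38.p6), read 5′ to 3′ on the strand of the gene, with each CG pair in capitals. The RefSeq start of *Fgf10* lies inside the span given above, which is from the GENCODE annotation and begins further upstream.
*Fgf7* promoter, chr2:126034408-126034657, plus strand: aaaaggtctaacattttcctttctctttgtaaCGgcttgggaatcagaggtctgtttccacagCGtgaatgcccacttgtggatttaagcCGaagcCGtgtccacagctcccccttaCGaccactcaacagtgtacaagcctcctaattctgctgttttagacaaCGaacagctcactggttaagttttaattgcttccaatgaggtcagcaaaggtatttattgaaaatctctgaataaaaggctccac
*Fgf10* promoter, chr13:118714449-118714698, plus strand: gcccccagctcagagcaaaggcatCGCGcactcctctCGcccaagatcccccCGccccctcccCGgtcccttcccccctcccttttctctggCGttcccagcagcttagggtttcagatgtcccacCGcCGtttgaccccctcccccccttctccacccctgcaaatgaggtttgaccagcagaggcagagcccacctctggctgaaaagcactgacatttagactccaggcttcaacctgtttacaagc
*Fgf18* promoter, chr11:33147401-33147650, minus strand: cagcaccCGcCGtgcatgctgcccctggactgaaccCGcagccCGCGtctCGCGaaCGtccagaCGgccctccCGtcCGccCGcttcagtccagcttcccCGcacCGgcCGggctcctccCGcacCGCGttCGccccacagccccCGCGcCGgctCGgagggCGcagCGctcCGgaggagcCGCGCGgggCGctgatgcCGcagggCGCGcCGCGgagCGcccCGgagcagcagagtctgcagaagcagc
The *Fgf7* window held 6 CG pairs at a GC content of 43.6%, and 49.7% of all 32817 RefSeq promoters of this length had fewer CG pairs. For *Fgf10* there were 8 CG pairs and a GC content of 61.2%, and 57.0% of promoters had fewer. The *Fgf18* window held 37 CG pairs at 77.2% GC, more CG pairs than 97.8% of promoters. *Fgf7* and *Fgf10* thus differed in GC content, had CG counts near the median of 6 over all promoters, and had far fewer CG pairs than *Fgf18*. The windows of *Fgf2* and *Fgfr2*, also high in Bmp4 mesenchymal-like cells, held 20 and 2 CG pairs. The 3 windows were chosen from class levels, and a link between base composition and class was not tested. The letters CCAAT were found for *Fgf7*, and GGGCGG for *Fgf10* and *Fgf18*, counting both strands, where 33.8% and 32.7% of all promoters held them. The AP-1 letters TGANTCA and the letters TATAAA, held by 6.8% and 12.4% of promoters, were in none of the 3 windows. A match in letters is a description of the window and not evidence of binding.

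The ligand *Fgf7* was at its highest in the Day 3 library and lower on each later day. In fibroblast-like cells it measured 126 CPM [121, 131] on Day 3, 54.9 CPM [53.1, 56.8] on Day 7, and 34.1 CPM [32.7, 35.4] on Day 14, from 2519, 3523, and 2400 UMIs. The intervals of the 3 days did not overlap. The log2 ratio was −1.20 [−1.27, −1.12] for Day 7 over Day 3 and −0.69 [−0.76, −0.61] for Day 14 over Day 7, and Day 3 was 3.69-fold above Day 14. The lower level was also seen within clusters. In the *Saa3* and *Cxcl5* cluster, *Fgf7* measured 129 CPM on Day 3 and 59.1 CPM on Day 7, a log2 ratio of −1.13 [−1.29, −0.97]. From Day 7 to Day 14 the log2 ratio lay between −1.12 and −0.27 in 5 clusters with at least 100 cells on both days, and its interval excluded 0 in 4 of them. With the *Saa3* and *Cxcl5* cluster left out, which leaves 139 fibroblast-like cells on Day 3, the class ratio of Day 7 over Day 3 was −0.63 [−0.88, −0.37] (54.4 against 84.4 CPM), under 2-fold, and without the 50 most abundant genes it was −0.96. Of those 139 cells, 99 were in a shallow cluster led by *Saa3* and *Col1a1*, with a median of 1064 UMIs over all days. On Day 3 the *Saa3* and *Cxcl5* cluster held 92.2% of the UMIs of the class. Ratios of Day 7 over Day 3 without it thus rest on few cells and UMIs for every gene. Levels of *Fgf7* varied little across clusters within a day, by 1.53-fold on Day 7 and 1.62-fold on Day 14.

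Fibroblast-like cells held 99.1%, 97.5%, and 86.1% of all *Fgf7* UMIs on Days 3, 7, and 14. The remainder on Day 14 was mostly in Bmp4 mesenchymal-like cells, which held 12% of the UMIs of the gene with 5.36% of the cells and 2.20% of the UMIs of the library. Their level was 63.4 CPM [27.4, 125] on Day 7 and 156 CPM [140, 174] on Day 14, with carried-over levels of 2.66 and 2.03 CPM. On Day 7 this was not beyond counting error of the fibroblast-like level (log2 ratio 0.21 [−1.01, 1.19]), and on Day 14 it was above it (2.20 [2.03, 2.36]). In macrophage-like cells, *Fgf7* measured 1.40 and 2.06 CPM on Days 3 and 7, with the carried-over level of 0.841 and 1.90 CPM inside both intervals. *Fam227b*, a gene on the opposite strand, covers the 3' end of *Fgf7*, and whether the counting used strand is not given in the sources used here.

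*Fgf10*, the other ligand of the Fgf7 subfamily, was sparse in fibroblast-like cells and concentrated in the Bmp4 mesenchymal-like class. In fibroblast-like cells it measured 1.10 CPM [0.689, 1.66] on Day 3, 2.12 CPM [1.78, 2.51] on Day 7, and 4.26 CPM [3.79, 4.77] on Day 14, from 22, 136, and 300 UMIs. For the class as a whole the order was thus the reverse of that of *Fgf7*, with log2 ratios of 0.95 [0.29, 1.67] and 1.01 [0.71, 1.31]. Within single clusters no ratio was beyond counting error. Day 7 over Day 3 was 0.92 [−0.57, 2.34] in the *Saa3* and *Cxcl5* cluster, and Day 14 over Day 7 was −0.84 [−1.72, 0.19] in the *Mgp* and *Cilp* cluster, 0.46 [−0.61, 1.49] in the *Ptx3* and *Sfrp2* cluster, and 0.17 [−0.51, 0.83] in the *Mmp3* and *Saa3* cluster. The class ratio of Day 7 over Day 3 was 0.44 [−0.27, 1.21] without the *Mmp3* and *Saa3* cluster and turned to −1.53 [−2.45, −0.43] without the *Saa3* and *Cxcl5* cluster, since the 139 fibroblast-like cells outside it on Day 3 had 6.39 CPM. That level rests on few UMIs, as 12 of the 22 *Fgf10* UMIs of Day 3 were in the *Saa3* and *Cxcl5* cluster. The later ratio stood at the 2-fold limit and was under it in 8 of 16 alternative settings (0.63 to 1.19), and it was 0.86 without the cluster led by *Mfap4* and *Igfbp2* and 0.61 [0.28, 0.95] without the *Tnc* and *H19* cluster. Bmp4 mesenchymal-like cells measured 95.1 CPM [49.2, 166] on Day 7 and 90.6 CPM [78.3, 104] on Day 14. These were above fibroblast-like cells by log2 ratios of 5.49 [4.50, 6.34] and 4.41 [4.14, 4.68], and carried-over levels were 0.103 and 0.254 CPM. On Day 14 a UMI of *Fgf10* was found in 134 of 724 such cells (18.5%), and the class held 38.2% of all *Fgf10* UMIs with 2.20% of the UMIs of the library. On Day 3 the class had 4 cells, too few to rank.

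Within fibroblast-like cells, *Fgf10* varied more between clusters than *Fgf7* did. On Day 7 it ranged from 0.283 CPM in the *Akr1c18* and *Pi16* cluster to 7.34 CPM [5.53, 9.56] in the *Mmp3* and *Saa3* cluster, which held 40.4% of the *Fgf10* UMIs of the class with 11.7% of its UMIs. On Day 14 the same pair of clusters had the lowest and highest levels, 0.977 and 8.27 CPM [5.62, 11.7]. In macrophage-like cells there were 0, 1, and 4 UMIs on Days 3, 7, and 14.

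**Figure D1:**
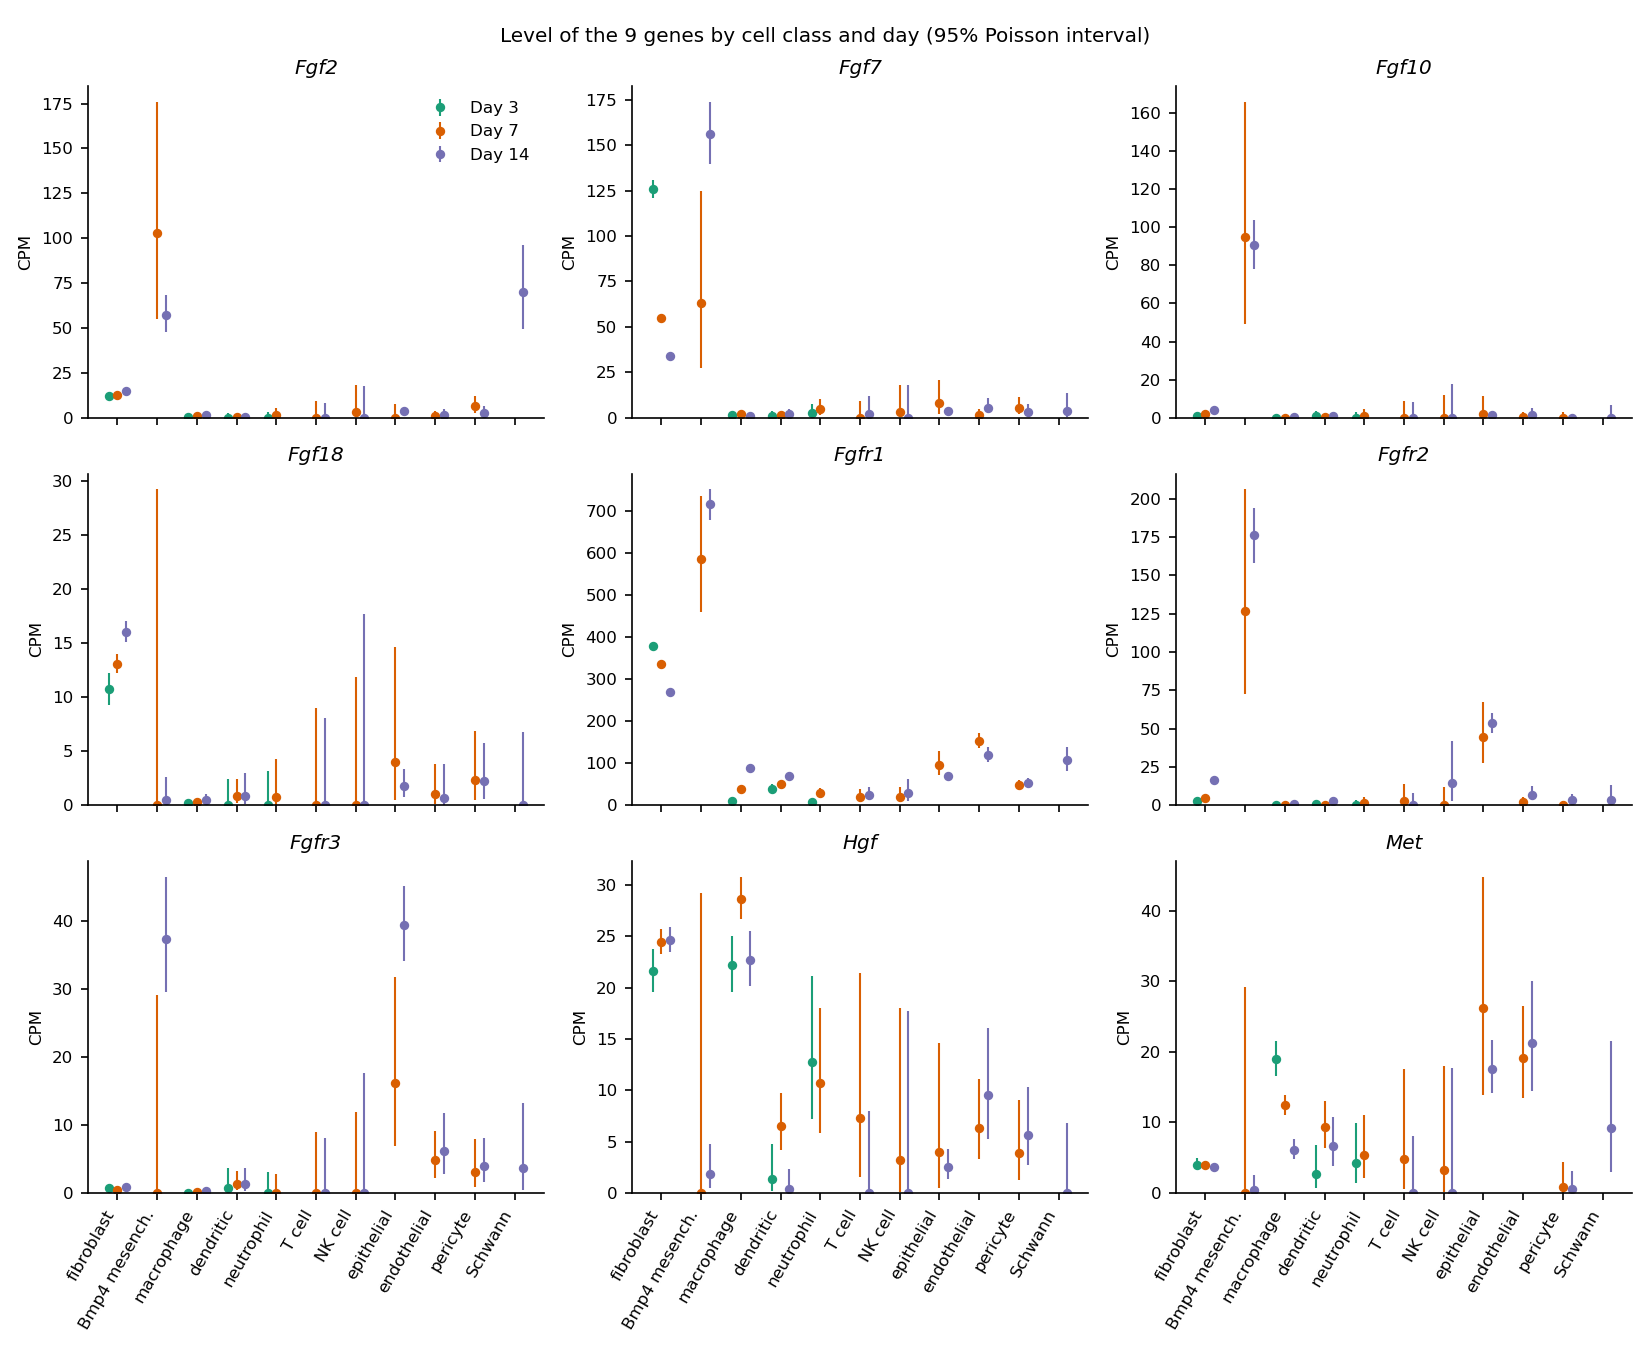
Level of each of the 9 genes in CPM by cell class on Days 3, 7, and 14, for classes with at least 50 cells in a library, with bars for 95% Poisson intervals. *Fgf10* and *Fgfr2* stand highest in Bmp4 mesenchymal-like cells on Days 7 and 14, *Fgf18* in fibroblast-like cells, and *Fgfr3* in epithelial-like and Bmp4 mesenchymal-like cells on Day 14.

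*Fgf18*, a ligand best known from cartilage, bone, and the hair cycle, was highest in fibroblast-like cells on each day. It measured 10.7 CPM [9.31, 12.2], 13.1 CPM [12.2, 14.0], and 16.0 CPM [15.1, 17] on Days 3, 7, and 14. The log2 ratios were 0.29 [0.07, 0.51] and 0.30 [0.17, 0.43], so each later day was higher by more than counting error and by less than 2-fold over the class as a whole. Both calls ended when single clusters were left out. Without the *Tnc* and *H19* cluster Day 14 over Day 7 was 0.01 [−0.14, 0.16], and Day 7 over Day 3 was 0.12 [−0.10, 0.35] without the *Akr1c18* and *Pi16* cluster and 0.20 [−0.02, 0.43] without the *Ptx3* and *Sfrp2* cluster. Fibroblast-like cells held 99.1%, 97.7%, and 98.0% of its UMIs. On Day 14 the next class, pericyte-like cells, was lower by a log2 ratio of 2.84 [1.48, 4.72], whereas on Day 7 the lead over epithelial-like cells was not beyond counting error (1.70 [−0.16, 4.75]). Bmp4 mesenchymal-like cells had 0 UMIs on Day 7, which allows up to 23.8 CPM, and 1 UMI (0.467 CPM) on Day 14.

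The clusters that had most *Fgf18* were not those that had most *Fgf10*. On Day 14 *Fgf18* ranged from 1.68 CPM in the *Mfap4* and *Igfbp2* cluster to 34.5 CPM [28.2, 41.7] in the *Akr1c18* and *Pi16* cluster, a 20.5-fold range, and on Day 7 the highest level was again in the latter, at 24.5 CPM [21.0, 28.4]. In the *Ptx3* and *Sfrp2* cluster *Fgf18* measured 16.7 CPM on Day 7 and 34.3 CPM on Day 14 (log2 ratio 1.03 [0.75, 1.32]). The ratio was 0.91 [0.15, 1.79] in the *Mgp* and *Cilp* cluster, 0.50 [0.13, 0.85] in the *Akr1c18* and *Pi16* cluster, and 0.44 [0.01, 0.86] in the *Mmp3* and *Saa3* cluster. In the *Saa3* and *Cxcl5* cluster Day 7 over Day 3 was −0.30 [−0.75, 0.13], within counting error. Macrophage-like cells had 2, 9, and 6 UMIs of *Fgf18*.

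*Fgf2*, a ligand without a signal peptide that is known to stimulate fibroblasts and vessel growth, lies at chr3:37348346-37410108 (plus strand), and its 3' end is covered by *Nudt6* on the opposite strand. It measured 11.8 CPM [10.4, 13.4], 12.6 CPM [11.7, 13.5], and 14.7 CPM [13.8, 15.6] in fibroblast-like cells on Days 3, 7, and 14. Day 7 over Day 3 was within counting error (log2 ratio 0.09 [−0.12, 0.30]), and Day 14 over Day 7 was 0.22 [0.09, 0.35]. This nearly level course was a sum over clusters that differed by 10.3-fold on Day 7 and 6.68-fold on Day 14. The *Akr1c18* and *Pi16* cluster had 45.8 CPM [41.0, 51.1] and 47.8 CPM [40.4, 56.2], and on Day 7 it held 40.1% of the *Fgf2* UMIs of the class with 11% of its UMIs. In the *Ptx3* and *Sfrp2* cluster *Fgf2* measured 14.4 CPM on Day 7 and 47.4 CPM on Day 14 (log2 ratio 1.72 [1.44, 2.0]). With the *Tnc* and *H19* cluster left out, the class ratio of Day 14 over Day 7 became −0.31 [−0.45, −0.17], and without the *Ptx3* and *Sfrp2* cluster it was −0.10 [−0.26, 0.05], so its direction depends on which clusters are counted, as did that of Day 7 over Day 3 (−0.48 [−0.71, −0.25] without the *Akr1c18* and *Pi16* cluster and 0.66 [0.44, 0.89] without the *Tnc* and *H19* cluster).

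Outside fibroblast-like cells, *Fgf2* was high in Bmp4 mesenchymal-like cells, at 103 CPM [54.9, 176] on Day 7 and 57.4 CPM [47.7, 68.5] on Day 14, with carried-over levels of 0.610 and 0.876 CPM. On Day 14 Schwann-like cells, the glia of peripheral nerves, had 69.9 CPM [49.5, 96.0], from 38 UMIs in 31 of 117 cells, with a carried-over level of 2.59 CPM. The Schwann-like and Bmp4 mesenchymal-like levels did not differ beyond counting error (log2 ratio 0.28 [−0.28, 0.82]), and the latter was above fibroblast-like cells by 1.97 [1.69, 2.24]. Macrophage-like cells had 1, 19, and 19 UMIs of *Fgf2*, with the carried-over level inside the interval on Days 3 and 7. On Day 14 the measured 1.53 CPM [0.919, 2.38] was above the carried-over level of 0.613 CPM.

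Among the receptors, *Fgfr1*, the main FGF receptor of mesenchymal cells, had its UMIs mostly in fibroblast-like cells (97.0%, 92.5%, and 84.4% on Days 3, 7, and 14). The gene lies at chr8:25513654-25575718 (plus strand). Its fibroblast-like level was 380 CPM [372, 389], 337 CPM [333, 342], and 269 CPM [266, 273]. The log2 ratios were −0.17 [−0.21, −0.13] and −0.33 [−0.35, −0.30], small differences with narrow intervals that rest on 7609, 21650, and 18979 UMIs. The first of these changed sign without the 50 most abundant genes or with every cell weighted equally (up to 0.06), and it was −0.09 [−0.21, 0.04] without the *Saa3* and *Cxcl5* cluster. Bmp4 mesenchymal-like cells were higher, at 587 CPM [461, 736] on Day 7 and 716 CPM [680, 752] on Day 14, above fibroblast-like cells by log2 ratios of 0.80 [0.45, 1.13] and 1.41 [1.33, 1.48], with carried-over levels of 16.3 and 16.1 CPM. Endothelial-like cells had 153 and 120 CPM on Days 7 and 14, above the carried-over levels of 21.0 and 27.2 CPM.

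In macrophage-like cells *Fgfr1* ran the other way. Its level was 9.44 CPM [7.79, 11.3] on Day 3, 38.3 CPM [36.0, 40.8] on Day 7, and 87.5 CPM [82.3, 92.8] on Day 14, from 115, 1026, and 1089 UMIs. The log2 ratios were 2.02 [1.74, 2.31] and 1.19 [1.07, 1.31], and Day 14 was 9.26-fold above Day 3. The carried-over levels were 2.54, 11.7, and 11.2 CPM, below the measured level on each day. After each cell was thinned to 500 UMIs, a UMI of *Fgfr1* was found in 0.331%, 1.56%, and 4.01% of macrophage-like cells, against 13.5%, 15.1%, and 12.5% of fibroblast-like cells (2.75%, 8.20%, and 20.3% against 78.8%, 86.3%, and 79.4% unthinned). T cell-like cells, which served as a background class, had 0.513% of 195 cells on Day 7 and 0.952% of 210 cells on Day 14. These shares rest on very few cells, and with 5 T cell-like cells Day 3 has no such background. The carried-over level of 23.5 and 19.9 CPM lay inside the intervals of their measured 19.5 and 24.0 CPM on Days 7 and 14.

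The macrophage-like clusters differed widely in *Fgfr1*, and the largest cluster of the class was a different one on each day. The best filled was led by *Arg1* and *Ccl9* on Day 3 (2057 of 2723 cells), by *Arg1* and *Cd36* on Day 7 (3697 of 9479), and by *F13a1* and *Pf4* on Day 14 (1387 of 3217). The highest level was in a cluster led by *Retnla*, *Lyz1*, and *Ear2*, at 142 CPM [123, 163] on Day 7 and 184 CPM [170, 200] on Day 14, with carried-over levels of 8.52 and 10.9 CPM. That cluster had 11, 328, and 604 cells on the 3 days, and with it left out the class ratio of Day 14 over Day 7 was 0.76 [0.60, 0.92] (55.1 against 32.5 CPM), no longer past 2-fold. Without the *Arg1* and *Ccl9* cluster, the ratio of Day 7 over Day 3 was 1.26 [0.81, 1.75]. Without the *Arg1* and *Cd36* cluster, that of Day 14 over Day 7 was 0.87 [0.73, 1.0]. Within single clusters, the intervals of the ratio of Day 7 over Day 3 overlapped. The *F13a1* and *Cbr2* cluster had 18.5, 73.7, and 69.8 CPM on Days 3, 7, and 14, a log2 ratio of 2.0 [1.33, 2.75] for Day 7 over Day 3 and of −0.08 [−0.38, 0.22] for Day 14 over Day 7. In the *Arg1* and *Ccl9* cluster *Fgfr1* was 7.62 CPM on Day 3 and 18.4 CPM on Day 7 (1.27 [0.63, 1.88]), beside carried-over levels of 2.41 and 11.5 CPM. In the *Arg1* and *Cd36* cluster it was 12.5, 20.4, and 62.9 CPM beside carried-over levels of 3.73, 12.6, and 13.2 CPM, and Day 7 over Day 3 was within counting error (0.71 [−0.16, 1.74]), whereas Day 14 over Day 7 was 1.62 [1.04, 2.16]. The *F13a1* and *Pf4* cluster had 34.0 CPM on Day 7 and 49.5 CPM on Day 14 (0.54 [0.21, 0.88]), with carried-over levels of 11.9 and 10.2 CPM. In the *Ccr2* and *Ms4a6c* cluster the level was 3.11, 12.2, and 19.7 CPM, and the carried-over level of 3.09, 11.2, and 14.5 CPM lay inside each interval. Dendritic cell-like cells had 39.6, 50.8, and 68.4 CPM, above carried-over levels of 2.47, 10.9, and 12 CPM. With called doublets kept, the class ratios of *Fgfr1* were 1.70 and 1.2, and with doublets removed up to the full expected rate they were 1.92 and 1.24. The part of doublets in the levels of single clusters was not tested.

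**Figure D2:**
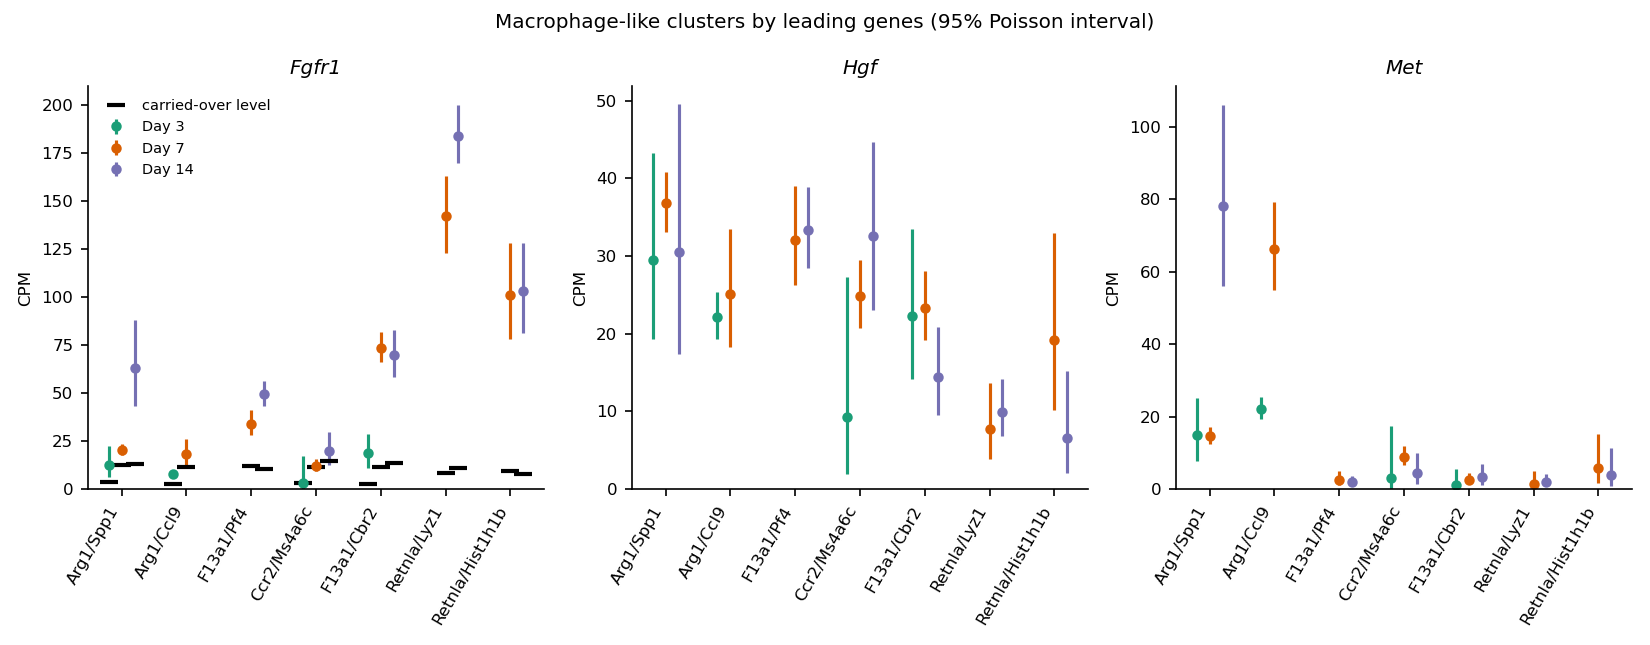
Level of *Fgfr1*, *Hgf*, and *Met* in CPM in each macrophage-like cluster with at least 100 cells in a library, by day, with error bars for 95% Poisson intervals and, for *Fgfr1*, black marks for the carried-over level. *Fgfr1* is highest in the *Retnla* and *Lyz1* cluster (142 and 184 CPM), and *Met* is highest in the *Arg1* and *Spp1* clusters.

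*Fgfr2*, whose epithelial splice form is the known receptor of Fgf7 and Fgf10, was highest in Bmp4 mesenchymal-like cells and next highest in epithelial-like cells. In the former it measured 127 CPM [72.5, 206] on Day 7 and 176 CPM [158, 194] on Day 14, and in the latter 44.3 CPM [27.8, 67.1] and 53.5 CPM [47.4, 60.2]. The difference between these classes was a log2 ratio of 1.52 [0.49, 2.51] on Day 7 and 1.71 [1.49, 1.94] on Day 14. Carried-over levels were 0.224 and 0.998 CPM in the former and 1.08 and 1.86 CPM in the latter. On Day 7, the Bmp4 mesenchymal-like class also held macrophage markers at 20.7% of their own level, and the part of other cells in its values was not tested.

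In fibroblast-like cells *Fgfr2* measured 2.55 CPM [1.90, 3.35], 4.63 CPM [4.12, 5.19], and 16.7 CPM [15.8, 17.7] on Days 3, 7, and 14, from 51, 297, and 1178 UMIs. This was a log2 ratio of 0.86 [0.43, 1.32] and then 1.85 [1.67, 2.04], and Day 14 was 6.56-fold above Day 3. The first ratio was −0.10 [−1.09, 1.13] without the *Saa3* and *Cxcl5* cluster. On Day 14 the *Mfap4* and *Igfbp2* cluster had 52.5 CPM [48.6, 56.5], and it held 58.1% of the *Fgfr2* UMIs of the class with 18.5% of its UMIs. Without that cluster the log2 ratio of Day 14 over Day 7 was 0.94 [0.73, 1.16] (8.59 against 4.47 CPM), under 2-fold. Without the *Mgp* and *Cilp* cluster it was 2.62 [2.43, 2.82]. Within single clusters the ratio was within counting error in the *Ptx3* and *Sfrp2* cluster (0.27 [−0.30, 0.84], from 68 and 45 UMIs), the *Mmp3* and *Saa3* cluster (0.40 [−0.28, 1.06], from 50 and 33 UMIs), and the *Mgp* and *Cilp* cluster (0.80 [−0.19, 2.03]). It was beyond it in the *Akr1c18* and *Pi16* cluster (2.05 [0.86, 3.33], from 10 and 18 UMIs) and in the shallow cluster led by *Saa3* and *Col1a1* (1.69 [0.06, 3.73], from 4 and 16 UMIs). *Fgfr2* was near 0 in macrophage-like cells, with 0, 6, and 12 UMIs. In GRCm38 the annotated span of *Fgfr2* (chr7:130162451-133123350, minus strand) runs over many other genes, none of which covers its 3' end.

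*Fgfr3*, a receptor known from cartilage and epidermis, was at low levels outside epithelial-like and Bmp4 mesenchymal-like cells. Epithelial-like cells had 16.1 CPM [6.96, 31.8] on Day 7, from 8 UMIs, and 39.4 CPM [34.1, 45.2] on Day 14. Bmp4 mesenchymal-like cells had 0 UMIs on Day 7 and 37.4 CPM [29.6, 46.5] on Day 14, which did not differ from the epithelial-like level beyond counting error (log2 ratio 0.07 [−0.31, 0.47]). On Day 14 the carried-over level was 0.103 CPM in epithelial-like and 0.0551 CPM in Bmp4 mesenchymal-like cells. Epithelial-like cells held 54.4% and Bmp4 mesenchymal-like cells 21.4% of all *Fgfr3* UMIs on Day 14. In fibroblast-like cells *Fgfr3* measured 0.649, 0.390, and 0.922 CPM from 13, 25, and 65 UMIs. The log2 ratio of Day 7 over Day 3 was −0.74 [−1.76, 0.35], within counting error, and that of Day 14 over Day 7 was 1.24 [0.56, 1.97]. Without the *Mfap4* and *Igfbp2* cluster the latter was 0.76 [−0.01, 1.55].

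**Figure D3:**
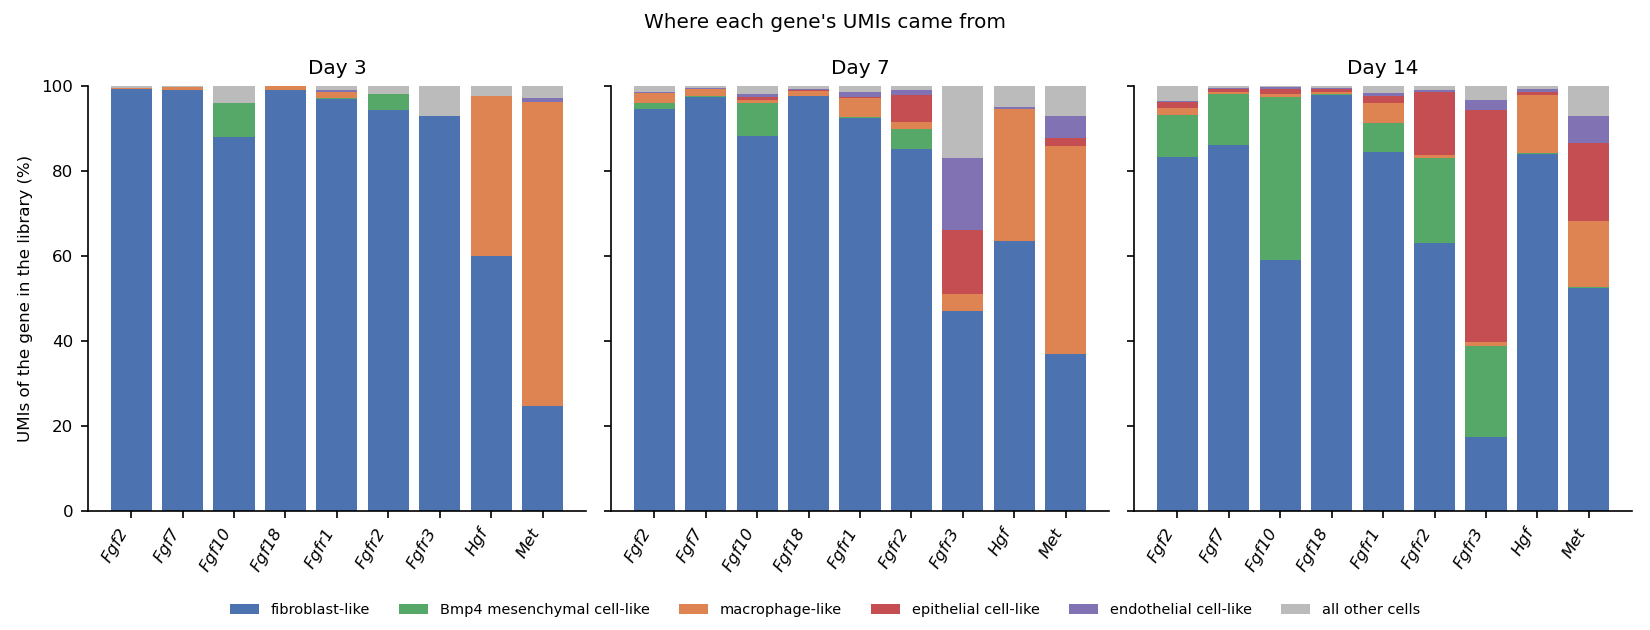
Share of the UMIs of each gene by cell class (percent of all UMIs of the gene in the analysed cells of a library) on Days 3, 7, and 14. Fibroblast-like cells hold 98.0% of *Fgf18* and 59.1% of *Fgf10* on Day 14, *Hgf* is split mainly between fibroblast-like and macrophage-like cells, and *Met* on Day 14 is split among fibroblast-like (52.6%), epithelial-like (18.4%), and macrophage-like cells (15.4%). On Day 14 these 3 classes hold 72.3%, 5.30%, and 12.8% of the UMIs of all genes.

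*Hgf* was found at similar levels in fibroblast-like and macrophage-like cells. The fibroblast-like level was 21.6 CPM [19.6, 23.8], 24.5 CPM [23.3, 25.7], and 24.7 CPM [23.5, 25.9] on Days 3, 7, and 14. The macrophage-like level was 22.2 CPM [19.6, 25], 28.7 CPM [26.7, 30.8], and 22.7 CPM [20.2, 25.5]. The classes were within counting error of each other on Day 3 (log2 ratio of macrophage-like over fibroblast-like cells 0.04 [−0.19, 0.26]), macrophage-like cells were higher on Day 7 (0.23 [0.11, 0.36]), and on Day 14 fibroblast-like over macrophage-like cells was 0.12 [−0.06, 0.31]. Carried-over *Hgf* could give macrophage-like cells 0.145, 0.846, and 1.03 CPM, and macrophage RNA could give fibroblast-like cells 0.219, 0.557, and 0.120 CPM. Fibroblast-like cells held 60.1%, 63.5%, and 84.0% of all *Hgf* UMIs, and macrophage-like cells held 37.5%, 31.1%, and 13.7%. Of the UMIs of all genes, fibroblast-like cells held 56.5%, 63.9%, and 72.3%, and macrophage-like cells held 34.4%, 26.6%, and 12.8%. The *Hgf* shares thus largely follow the size and depth of the classes. The gene lies at chr5:16553495-16620152 (plus strand).

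Between days *Hgf* stayed within 2-fold in both classes, with log2 ratios of 0.18 [0.02, 0.33] and 0.01 [−0.09, 0.11] in fibroblast-like cells and 0.37 [0.17, 0.58] and −0.34 [−0.54, −0.14] in macrophage-like cells. Without the *Mgp* and *Cilp* cluster the fibroblast-like ratio of Day 14 over Day 7 was −0.75 [−0.91, −0.59] (14.7 against 24.7 CPM), and without the *F13a1* and *Pf4* cluster the macrophage-like one was −0.85 [−1.14, −0.56]. Without the *Saa3* and *Cxcl5* cluster Day 7 over Day 3 was −0.37 [−0.78, 0.07] in fibroblast-like cells, and without the *Arg1* and *Cd36* cluster both macrophage-like ratios were within counting error (0.16 [−0.07, 0.40] and −0.11 [−0.34, 0.12]). Single fibroblast-like clusters differed in direction. *Hgf* in the *Mgp* and *Cilp* cluster measured 16.1 CPM on Day 7 and 31.6 CPM on Day 14 (log2 ratio 0.97 [0.41, 1.59]), where it held 75.7% of the *Hgf* UMIs of the class with 59.2% of its UMIs, whereas the ratio was −0.83 [−1.30, −0.39] in the *Akr1c18* and *Pi16* cluster and −0.79 [−1.26, −0.33] in the *Ptx3* and *Sfrp2* cluster. The *Mfap4* and *Igfbp2* cluster had the lowest level on Day 14, 8.04 CPM. Among macrophage-like clusters *Hgf* ranged from 7.68 to 36.8 CPM on Day 7 and from 6.50 to 33.4 CPM on Day 14, and its lowest levels on both days were in clusters led by *Retnla*, where *Fgfr1* was highest.

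Mast cell-like cells, too few to rank, had a far higher *Hgf* level than the other classes on Day 7. On Day 7 there were 71 UMIs in 31 cells, or 1939 CPM [1514, 2446], with a UMI in 20 cells (64.5%) and at most 10 in a cell. The carried-over level was 1.75 CPM, and macrophage markers were at 7.96% of their own level in these cells. Mast cell markers summed to 15565 CPM on Day 7, against 76754 CPM on Day 14. The leading genes of the cluster included *Hdc*, *Acod1*, *Ccl3*, and *Ccl4*, which also led neutrophil-like clusters. At resolution 0.5 the ranked class with the highest *Hgf* on Day 7 was neutrophil-like. The part of other cells in the mast cell-like values was not tested. On Day 14 there were 4 UMIs in 20 cells, or 93.3 CPM [25.4, 239]. The 2 mast cell-like cells of Day 3 had 0 UMIs of *Hgf*. Neutrophil-like cells had 12.8 and 10.7 CPM on Days 3 and 7, above carried-over levels of 0.259 and 2.27 CPM. Those levels count fibroblast RNA alone, and the part of macrophage or mast cell RNA in the neutrophil-like values was not tested.

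*Met*, the receptor of HGF, was lower in macrophage-like cells on each later day. It measured 19.0 CPM [16.6, 21.6], 12.4 CPM [11.1, 13.9], and 6.10 CPM [4.81, 7.64] on Days 3, 7, and 14, from 231, 333, and 76 UMIs, with log2 ratios of −0.61 [−0.85, −0.36] and −1.03 [−1.41, −0.66]. The later ratio ranged from −1.41 to −0.58 over 15 alternative settings and was under 2-fold in 4 of them. Without the *Arg1* and *Ccl9* cluster the ratios were 0.50 [−0.26, 1.36] and −0.58 [−0.99, −0.19], and without the *Arg1* and *Cd36* cluster the later ratio was −1.93 [−2.50, −1.41]. The carried-over level was 0.0267 and 0.136 CPM on Days 3 and 7. In fibroblast-like cells *Met* was 4.0, 3.94, and 3.69 CPM, with both ratios within counting error (−0.02 [−0.39, 0.36] and −0.10 [−0.35, 0.16]), although the 139 cells outside the *Saa3* and *Cxcl5* cluster on Day 3 had 10.9 CPM, which gives a first ratio of −1.46 [−2.17, −0.65]. That level rests on few UMIs, as 63 of the 80 *Met* UMIs of the class on Day 3 were in the *Saa3* and *Cxcl5* cluster. The gene lies at chr6:17463800-17573980 (plus strand).

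Most *Met* of the macrophage-like class was in the clusters led by *Arg1* and *Spp1*, whose share of the class was smaller on each later day. These clusters had 21.6 CPM [18.9, 24.6], 22.6 CPM [20, 25.6], and 79.8 CPM [58.4, 106] on Days 3, 7, and 14. They held 87.8%, 46.2%, and 7.68% of macrophage-like cells (2391, 4377, and 247 cells) and 99.1%, 78.4%, and 60.5% of its *Met* UMIs. The libraries differed in size (4360, 19590, and 13510 cells analysed), so the numbers of cells are not compared between days. The other macrophage-like clusters together had 1.26 CPM [0.152, 4.54], 4.73 CPM [3.70, 5.95], and 2.53 CPM [1.70, 3.61]. Within the *Arg1* and *Ccl9* cluster *Met* measured 22.2 CPM on Day 3 and 66.3 CPM on Day 7 (log2 ratio 1.58 [1.24, 1.91]), and within the *Arg1* and *Cd36* cluster 14.6 CPM on Day 7 and 78.1 CPM on Day 14 (2.42 [1.88, 2.93]).

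Epithelial-like and endothelial-like cells, known targets of HGF, had *Met* on both days when they could be ranked. On Day 7 the levels were 26.2 CPM [13.9, 44.8] in epithelial-like and 19.1 CPM [13.4, 26.5] in endothelial-like cells. On Day 14 they were 17.6 CPM [14.2, 21.7] and 21.2 CPM [14.4, 30.1], a difference within counting error (log2 ratio 0.27 [−0.37, 0.87]). Carried-over levels were 0.920 and 0.410 CPM in epithelial-like and 0.245 and 0.373 CPM in endothelial-like cells. Melanocyte-like cells of Day 14, too few to rank, had 170 CPM [84.7, 304], from 11 UMIs in 7 of 24 cells, with a carried-over level of 0.161 CPM. Fibroblast-like cells held 52.6% of all *Met* UMIs on Day 14, with epithelial-like cells at 18.4% and macrophage-like cells at 15.4%. In the same order, these classes held 72.3%, 5.30%, and 12.8% of the UMIs of all genes.

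**Figure D4:**
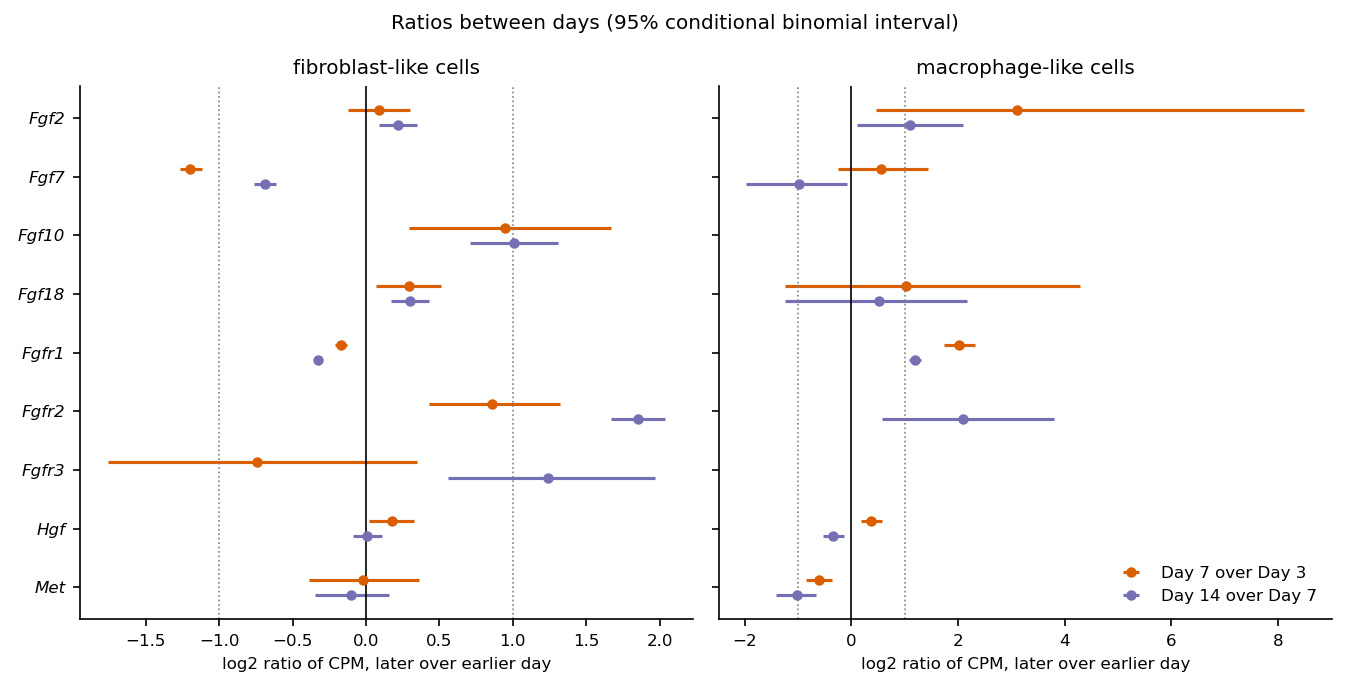
Log2 ratio of CPM between consecutive days for the 9 genes in fibroblast-like and macrophage-like cells, with bars for 95% counting intervals and lines at 2-fold, for genes with at least 10 UMIs over both libraries. In fibroblast-like cells *Fgf7* lies below the lines for Day 7 over Day 3 alone, and *Fgf10*, *Fgfr2*, and *Fgfr3* lie above them for Day 14 over Day 7 alone. *Fgfr1* has opposite signs in the 2 classes in both comparisons.

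The 9 genes were also counted together against all genes. In fibroblast-like cells 1 of 9 passed 2-fold from Day 3 to Day 7 (*Fgf7*, lower), where 25.6% of the 15635 genes with at least 10 UMIs were past 2-fold in either direction. From Day 7 to Day 14 it was 3 of 9 (*Fgf10*, *Fgfr2*, and *Fgfr3*, higher), against 20.6% of 16720 genes. Epithelial markers in fibroblast-like cells were at 0.110% and 0.462% of their own level on Days 7 and 14. Levels carried over into fibroblast-like cells were computed from macrophage-like cells alone, for *Hgf* and *Met*. The part of free RNA from other classes in these 3 ratios was not tested. The median log2 ratio of the 9 genes was 0.09 and 0.22, beside −0.08 and −0.16 over all genes tested.

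In macrophage-like cells 6 of the 9 genes had at least 10 UMIs over Days 3 and 7, and 3 of them were past 2-fold and higher, where 20.8% of 13503 genes were past 2-fold. They were *Fgfr1*, *Fgf2* (log2 ratio 3.11 [0.46, 8.49], from 1 and 19 UMIs), and *Fgf18* (1.03 [−1.24, 4.28], from 2 and 9 UMIs). On both days the carried-over level lay inside the intervals of *Fgf2* and *Fgf18*, and on Day 7 it was 0.435 CPM for *Fgf2* and 0.452 CPM for *Fgf18*, beside 0.710 and 0.336 CPM measured, whereas *Fgfr1* was above its carried-over level on both. From Day 7 to Day 14, 7 genes could be compared and 4 were past 2-fold, against 14.9% of 13905 genes. *Fgf2* (1.10 [0.11, 2.10]), *Fgfr1*, and *Fgfr2* (2.10 [0.58, 3.80]) were higher and *Met* was lower. The ratio of *Fgf2* was under 2-fold in 7 of 15 alternative settings (0.41 to 1.27 over all), among them called doublets kept (0.72) and removed in full (0.52). For *Fgfr2* the carried-over level was 0.160 and 0.698 CPM on Days 7 and 14, inside the intervals of the measured 0.224 and 0.964 CPM, so it was above that level on neither day. The median log2 ratio of the genes compared, those at the carried-over level included, was 0.80 and 0.52, beside 0.05 and −0.10 over all genes tested. The ratios of *Fgf2*, *Fgf7*, *Fgf18*, and *Fgfr2* rest on few UMIs, and a gene that reaches 10 UMIs through its higher day is bound to show a ratio. *Fgf10* and *Fgfr3* were under that minimum in both comparisons.

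The other genes of these pathways were followed as a list of 62 genes, of which 61 were matched, and counted in the same way. In fibroblast-like cells 7 were higher and 8 lower past 2-fold of 44 compared from Day 3 to Day 7 (median log2 ratio −0.15), where 2281 of all 15635 genes were higher and 1727 lower. For Day 14 over Day 7, 13 were higher and 4 lower of 51 (median 0.14), where 1586 of all 16720 genes were higher and 1860 lower. Among those with at least 20 CPM on a day, the co-receptors *Sdc4*, a heparan sulfate proteoglycan (501 to 192 CPM, log2 ratio −1.38), and *Cd44* (1106 to 439 CPM, −1.33), the feedback inhibitor *Spry2* (106 to 49.1 CPM, −1.10), and the protease *Plau*, known to activate HGF (42.6 to 20.6 CPM, −1.05), were lower on Day 7 than on Day 3, as was *Fgf7*. From Day 7 to Day 14 the proteoglycans *Sdc1* (50.6 to 22.1 CPM, −1.20), *Sdc3* (20.8 to 8.17 CPM, −1.34), and *Gpc1* (47.9 to 13.6 CPM, −1.81) were lower. Of the 10 other FGF family genes compared then, 6 were higher past 2-fold and 0 lower, each of the 6 at 1.72 CPM or less on Day 14. They include *Fgf12* and *Fgf13*, so this counts genes of the family and not secreted ligands. All listed genes that were higher past 2-fold were under 20 CPM on both days, so the rule named only lower ones. Of 13 targets and feedback inhibitors, 2 were higher and 2 lower past 2-fold from Day 3 to Day 7. From Day 7 to Day 14, 2 were higher and 1 was lower.

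In macrophage-like cells 7 of 37 other pathway genes were higher and 5 lower past 2-fold from Day 3 to Day 7 (median 0.12), where 2101 of all 13503 genes were higher and 702 lower. Of 37 compared between Days 7 and 14, 3 were higher and 7 lower (median −0.10), where 1036 of all 13905 genes were higher and 1031 lower. Lower on Day 7 than on Day 3 were *Flrt3* (231 to 49.5 CPM, log2 ratio −2.22), *Cd44* (1407 to 583 CPM, −1.27), *Dusp5*, a phosphatase of the ERK pathway (609 to 257 CPM, −1.24), *Spry2* (31.9 to 14.9 CPM, −1.10), and the adapter *Gab1* (132 to 63.0 CPM, −1.06). The protease *Plat* was higher (9.52 to 21.4 CPM, 1.17). In fibroblast-like cells *Plat* was at 775 and 447 CPM on Days 3 and 7. *Col1a1* in macrophage-like cells was at 0.668% and 3.46% of its fibroblast-like level, and the part of free RNA in the *Plat* ratio was not tested. From Day 7 to Day 14 *Dusp6*, which restrains ERK, was lower (130 to 43.3 CPM, −1.59). Of the 12 targets and feedback inhibitors compared in this class, 1 was higher and 2 were lower past 2-fold in each comparison. Of ligands outside the 9 genes, a pair was singled out after their values were seen. *Fgf5* had 173 CPM [140, 212] in Schwann-like cells on Day 14 and *Fgf1* had 23.4 and 43.1 CPM in pericyte-like cells on Days 7 and 14.

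For each gene, the most similar patterns were sought over 24 groups of class and day with at least 50 cells, among 12885 genes. The Pearson correlation of log2(CPM + 1) describes these groups, which share libraries, depth, and free RNA. *Fgf10* was most like *Rspo4*, *Ndp*, and *Hhip* (r = 0.95 each), and *Fgfr2* was most like *Boc* (0.94), *Tpd52l1* (0.92), and *Maob* (0.89). *Fgf7* was followed most closely by *Rorb* (0.93), *Fgf18* by *Stmn4* (0.94), *Fgf2* by *Pappa* (0.93), and *Fgfr3* by *Cecr2* (0.92). For *Fgfr1* the highest value was 0.87, with *Prrx2* and *Apod*. *Hgf* and *Met*, which were spread over several classes, had the weakest matches, *Sel1l3* (0.78) and *Lyrm1* (0.77).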

How the data were processed

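Cells of wounded skin from Days 3, 7, and 14 were measured with Chromium 3' v3.1 libraries on a DNBSEQ-G400RS sequencer, 1 library per day. The deposited tables hold raw UMI counts for each gene in each barcode, which the authors made with Cell Ranger 6.0.0 on the mm10 build according to the submitters' processing notes. The annotation used for counting is not given in the sources used here, and symbols were matched by Ensembl identifier for 32158 of 32285 genes. Total counts per library were between 38133650 and 120940799 UMIs.

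Barcodes under 200 genes or 500 UMIs, or over 10% mitochondrial UMIs, were dropped and the rest kept (4452, 21568, and 14472 on Days 3, 7, and 14), and 92, 1978, and 962 called doublets were removed, which is 0.5 of the number expected at 0.8% per 1000 barcodes. The libraries were clustered together without alignment (2000 variable genes, 30 principal components, 15 neighbours, Leiden at resolution 1), and the 9 genes, the other pathway genes, mitochondrial and ribosomal genes, and *Gm42418* were not used. The 35 clusters were named from at least 3 standard markers, and 41 cells stayed unnamed. The naming rule was adjusted after the clusters were seen.

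The UMIs of each class were added up within a library and scaled to CPM, with exact Poisson intervals for levels, exact conditional binomial intervals for ratios, and Clopper-Pearson intervals for shares. Ratios needed at least 10 UMIs over both libraries, classes were ranked with at least 50 cells, and clusters were used with at least 100 cells in a library. Where a level was 0, the limit is what 3 counts allow. Cells were thinned to 500 UMIs for shares of cells, and no cell of the 3 libraries was too shallow for it. No test was made. The ratio step was tested on simulated data. The 9 genes, the gene lists, and the markers were chosen with earlier results of these data known. All 9 genes were named, and other pathway genes were named when past 2-fold with at least 20 CPM in a library, beside *Fgf1* and *Fgf5*, which were chosen after their values were seen. The alternatives were other scalings, mitochondrial limits of 5% and 20%, at least 500 genes, doublets kept or removed in full, resolutions of 0.5 and 2, libraries clustered alone, classes set cell by cell, and a minimum of 30 UMIs. Python 3.11.15, numpy 2.4.6, scipy 1.17.1, scikit-learn 1.9.0, igraph 0.11.9, and matplotlib 3.10.9 were used. Promoter sequences came from RefSeq (GRCm38.p6, 8 of 9 genes matched) and gene positions from the GENCODE annotation of GRCm38.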

Additional observations from a re-analysis of the deposited data

Results flagged for a closer look

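*Fgfr1* went opposite ways in fibroblast-like and macrophage-like cells in both comparisons. The log2 ratio of Day 7 over Day 3 was −0.17 in fibroblast-like cells and 2.02 in macrophage-like cells. For Day 14 over Day 7 it was −0.33 in fibroblast-like cells and 1.19 in macrophage-like cells. The difference between the classes was not tested, since each day is 1 library. Fibroblast markers in macrophage-like cells were at 423, 3812, and 5367 CPM on Days 3, 7, and 14, and the carried-over level of *Fgfr1* was 2.54, 11.7, and 11.2 CPM beside the measured 9.44, 38.3, and 87.5 CPM. Neutrophil-like cells, at their carried-over level of *Fgfr1* on Days 3 and 7, had a log2 ratio of 1.77 [0.74, 2.94]. Without the *Retnla* and *Lyz1* cluster the macrophage-like ratios were 1.88 and 0.76. The fibroblast-like ratio of Day 7 over Day 3 was above 0 under 2 of 16 alternatives.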

How the results depend on the processing

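The number of the 9 genes past 2-fold in fibroblast-like cells from Day 3 to Day 7 was 1, and it was 2 without the 50 most abundant genes in the scaling, with the mean CPM of single cells, at resolution 2, at mitochondrial limits of 5% and 20%, with at least 500 genes, and with each library clustered alone, and 3 with scaling by the median of ratios. From Day 7 to Day 14 it was 3, and it was 2, without *Fgf10*, at resolutions of 0.5 and 2, at a mitochondrial limit of 20%, with at least 500 genes, and with doublets removed in full, and 1 with each library clustered alone. In macrophage-like cells the count from Day 3 to Day 7 was 3, and 1 with a minimum of 30 UMIs, which leaves fewer genes to compare, and it was 2 or 3 otherwise. In the same class the count for Day 14 over Day 7 was 4, and between 3 and 5 under the settings that kept every cluster. Alternatives chosen after seeing the data left out single clusters or the shallow fibroblast-like cluster. Without the *Mfap4* and *Igfbp2* cluster, 0 of the 9 genes were past 2-fold in fibroblast-like cells from Day 7 to Day 14, without the *Saa3* and *Cxcl5* cluster 3 were from Day 3 to Day 7 and 2 from Day 7 to Day 14, and without the *Retnla* and *Lyz1* cluster 2 were in macrophage-like cells from Day 7 to Day 14. Beyond this, the cause of these moves was not tested. Of 474 log2 ratios recomputed under alternatives, 410 stayed inside the counting interval of the reported value and 64 left it, and 0 of those past 2-fold changed sign. The highest class differed in 28 of 324 recomputed cases, among *Fgf7*, *Fgf10*, *Fgfr3*, *Hgf*, and *Met*. Shares of cells depended on depth, and 71 of 108 left their interval with thinning to 1000 UMIs or none. The fibroblast-like ratios that changed sign under an alternative, or with any single cluster left out, were those of *Fgf2*, *Fgf10*, *Fgfr1*, *Fgfr2*, *Hgf*, and *Met* from Day 3 to Day 7 and of *Fgf2*, *Hgf*, and *Met* from Day 7 to Day 14, with *Fgfr1* between −0.25 and 0.06. In macrophage-like cells *Fgf7* and *Met* did so from Day 3 to Day 7 and *Fgf18* from Day 7 to Day 14. No unnamed cluster held at least 6 fibroblast markers, so counting such clusters as fibroblast-like gives no further value. No paired analysis was possible because each day is 1 library, and for the same reason no library could be left out. Depth limits the genes with few UMIs, such as *Fgf10*, *Fgf18*, *Fgfr2*, and *Fgfr3* in macrophage-like cells.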
